A study of Mus musculus with 9 samples.

Results

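The regions described here were the binding sites of Ets1 called in cultured beige adipocytes, 30553 peaks over 9.86 Mb, and in mature adipocytes of mice kept at room temperature (RT), where the peaks covered 1.05 Mb. Together these were 34609 of the 454996 peaks in the 9 lists of the series. A peak that overlapped a peak of the other list by at least 1 bp was called shared, and any other peak single. The beige adipocytes were made in culture from stromal vascular cells (those that do not float as fat cells do) of inguinal white adipose tissue (iWAT, a fat pad under the skin) of wild type C57 male mice aged 3 to 4 weeks, with insulin, dexamethasone, triiodothyronine, rosiglitazone and isobutylmethylxanthine, and were collected at day 6. The RT adipocytes were the floating fat cells of digested iWAT of wild type C57 male mice aged 8 to 10 weeks, kept at room temperature with no further treatment. Each group had 1 library, so no difference between them could be tested, and the spread between animals or cultures is unknown. The groups differed at once in mouse age, in culture, in inducing agents and in differentiation, and these cannot be told apart. The other lists, used here to annotate the peaks, held Ets1 in adipocytes after cold stress (CS), the histone mark H3K27ac in adipocytes of Ets1 knock-in (EA+/+), knock-out (EAKO) and control mice (EC+/+ and Flox), and open chromatin (ATAC) in EAKO and Flox adipocytes.

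Ets1 is a transcription factor of the ETS family, whose members share a DNA-binding domain that recognises a GGAA core and bind many promoters of genes active in every cell. Because the members read almost the same letters, a site can be used by several of them. Beige adipocytes are heat-producing fat cells, rich in mitochondria, that appear in white fat in the cold. In CUT&Tag a transposase is led to the factor by an antibody and cuts sequencing adapters into the DNA around it, and the method is known for some background cutting in open chromatin. The labels call the libraries ChIP, and the study's methods describe CUT&Tag on mature adipocytes. The −log10 q given for a peak is the strength of the call against the local background within its own library. It depends on sequencing depth, so it ranks peaks within a list and was not compared between lists.

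Sequences were chosen to show what lay under the summits of the main peak classes. Each holds a summit with 50 bases on each side, from the RefSeq GRCm38.p6 (mm10) genome, and this is the window used for all counts of letters. The first set holds the strongest beige single peaks at promoters with the ETS letters CCGGAAGT, which are in capitals on either strand, and the peak of Tfam, the gene of the study lists used here that had these letters in its window.
Ddit3, chr10:127290593-127290693, plus strand: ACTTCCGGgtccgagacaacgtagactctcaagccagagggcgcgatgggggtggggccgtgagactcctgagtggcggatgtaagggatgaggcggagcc
Shc1, chr3:89418480-89418580, plus strand: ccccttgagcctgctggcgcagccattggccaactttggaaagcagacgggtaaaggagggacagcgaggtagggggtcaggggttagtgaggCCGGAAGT
Chpf, chr1:75479349-75479449, plus strand: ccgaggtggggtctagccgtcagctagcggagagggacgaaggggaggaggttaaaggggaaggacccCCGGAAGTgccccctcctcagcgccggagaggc
Tfam, chr10:71238069-71238169, plus strand: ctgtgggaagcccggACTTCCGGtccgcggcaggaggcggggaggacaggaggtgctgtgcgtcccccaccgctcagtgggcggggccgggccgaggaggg
Ddit3 encodes a stress-response factor, Shc1 a signalling adaptor, Chpf an enzyme of chondroitin synthesis and Tfam the main packaging factor of mitochondrial DNA. Their beige peaks had −log10 q of 178, 176, 174 and 34.7, and none overlapped an RT peak.

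The second set holds the strongest beige single peaks away from promoters with the AP-1 letters TGANTCA, which are in capitals. AP-1 is a dimer of Jun and Fos proteins.
Prss56, chr1:87181007-87181107, plus strand: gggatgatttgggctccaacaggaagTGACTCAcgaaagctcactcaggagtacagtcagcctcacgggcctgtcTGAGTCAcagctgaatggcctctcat
Mrpl33, chr5:31576799-31576899, plus strand: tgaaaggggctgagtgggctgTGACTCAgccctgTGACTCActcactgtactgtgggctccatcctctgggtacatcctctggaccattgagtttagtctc
S100a10, chr3:93597342-93597442, plus strand: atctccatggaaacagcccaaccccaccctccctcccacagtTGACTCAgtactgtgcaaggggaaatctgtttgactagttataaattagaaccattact
Each is named by the nearest start site, at 2256, 20086 and 36665 bp, and all were intergenic. The peaks near Prss56 and Mrpl33 carried the letters at 2 places each, and the one near S100a10 at 1 place.

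The third set holds shared promoter peaks. Mgat1, which encodes an enzyme of N-glycan synthesis, had the strongest shared peak with the ETS letters. Ulk1, the kinase that starts autophagy, was the only gene of those lists with a peak in both libraries, and its capitals mark the SP/KLF letters GGGCGG, which zinc finger factors of CpG-rich promoters bind.
Mgat1, chr11:49244101-49244201, plus strand: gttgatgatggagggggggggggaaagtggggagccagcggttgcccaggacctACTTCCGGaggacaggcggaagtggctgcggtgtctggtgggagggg
Ulk1, chr5:110810207-110810307, plus strand: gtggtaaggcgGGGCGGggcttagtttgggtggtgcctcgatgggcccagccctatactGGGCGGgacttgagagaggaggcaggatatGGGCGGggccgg
The Ulk1 window had 3 copies of the SP/KLF letters and none of the ETS letters.

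The last sequence shows the strongest RT single peak with a CA repeat, defined as at least 6 copies of CA or TG in a row, in capitals.
Gpm6a, chr8:55121437-55121537, plus strand: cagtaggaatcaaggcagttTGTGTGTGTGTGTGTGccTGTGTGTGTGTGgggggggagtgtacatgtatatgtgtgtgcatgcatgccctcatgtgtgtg
This peak was intergenic, at 166644 bp from the nearest start site, and 89.1% of its window was marked as repeat in the reference. It overlapped no beige peak.

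Most sites were found in one library only. Of the beige peaks 96.8% were single (29574, Wilson 95% interval 96.6 to 97.0), and of the RT peaks 75.7% were single (3069, 74.3 to 77.0). When the beige list was limited to its best peaks, as many as RT had, the shares were 85.4% in beige (84.3 to 86.4) and 85.2% in RT (84.1 to 86.2). The intervals cover counting error only. The shared sites were 979 beige and 987 RT peaks in 993 pairs. In 601 pairs (60.5%) the RT peak lay wholly within the beige peak, and the summits were a median of 76 bp apart (quartiles 24 to 161). Shared peaks stood higher in both lists, as the plot by rank shows. They made up 18.1% of the best 10% of the beige list and 1.01% of its last 10%. In the RT list they made up 51.7% of the best 10% and 11.9% of the last 10%. In beige the gap lay mainly at promoters, where the median −log10 q was 57.7 for shared and 10.6 for single peaks. Away from promoters these medians were 6.68 and 5.27. Shared beige promoter peaks were also wider, at a median of 606 bp against 352 bp, and the part of width in the overlap was not tested.

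**Figure D1:**
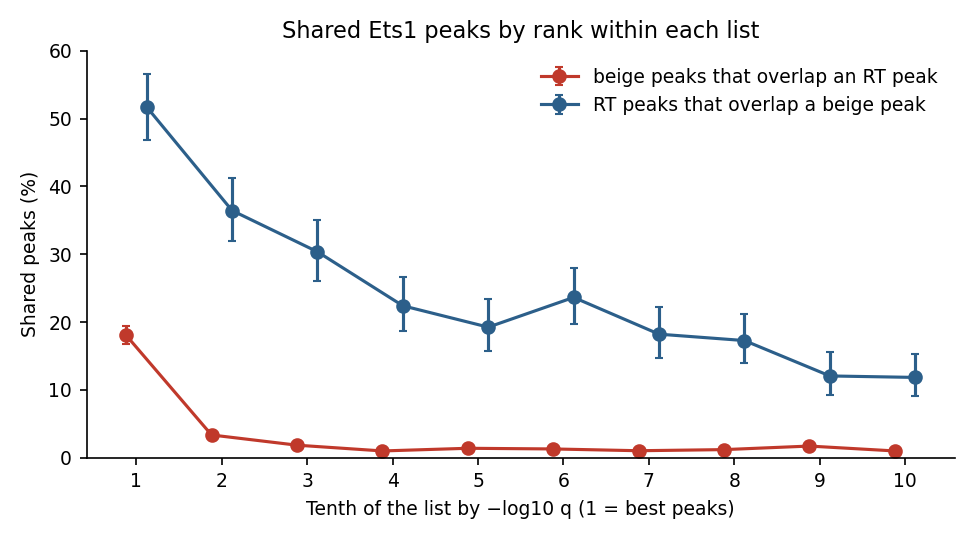
Shared peaks (y axis, % of the peaks in a bin) in bins of 10% of each list ranked on −log10 q (x axis, 1 = best), with Wilson 95% intervals, for beige (red) and RT (blue). The best bin held 18.1% shared peaks in beige and 51.7% in RT.

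Peaks were scarce on the X chromosome in both lists. Beige had 2.81 peaks per Mb there, against 8.13 to 20.2 on the autosomes, and RT had 0.164 per Mb, against 1.33 to 2.04.

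The classes lay in different places. Promoters, taken as 1 kb on each side of a start site of a protein-coding gene, held 35.2% of beige single peaks (34.7 to 35.8), 66.3% of beige shared peaks (63.3 to 69.2) and 5.28% of RT single peaks (4.54 to 6.13). Of RT single peaks 57.9% were intergenic. At promoters the beige single summits lay a median of 87 bp from the nearest start site and those of beige shared peaks 107 bp, against 366 bp for RT single summits.

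**Figure D2:**
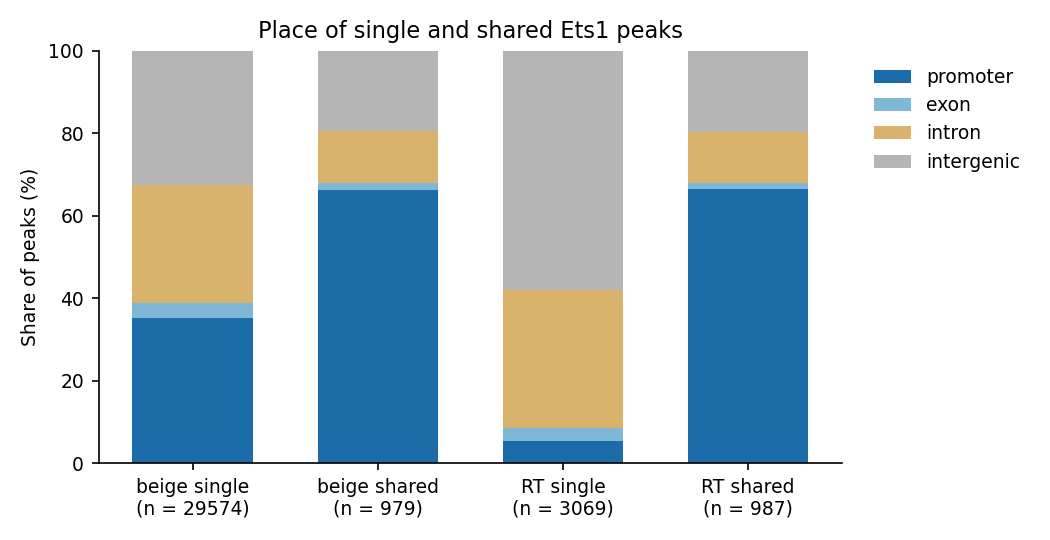
Share of peaks (y axis, %) at promoters, in exons, in introns and between genes, for single and shared peaks of beige and RT (x axis). RT single peaks differ from the other classes in having 5.28% at promoters and 57.9% between genes.

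Open chromatin of adipocytes covered the beige peaks and few of the RT single ones. Flox ATAC peaks held 85.6% of beige single peaks (85.2 to 86.0) and 80.5% of beige shared peaks (77.9 to 82.9), against 6.35% of RT single peaks (5.54 to 7.27). Beige peaks at promoters were almost all open, at 95.4% of single and 98.8% of shared ones. Away from promoters the order turned, with 80.3% of beige single peaks and 44.5% of beige shared peaks in Flox ATAC, against 4.06% of RT single peaks. The Flox adipocytes were taken from mice and not from culture, so the beige sites were read against the chromatin of other cells.

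Recurrence was counted over the 7 lists other than beige and RT. At promoters 73.8% of the 649 beige shared peaks (70.3 to 77.0) and 30.3% of the 10419 beige single peaks (29.5 to 31.2) overlapped a peak in all 7, against 12.3% of the 162 RT single peaks (8.14 to 18.3). A CS peak lay at 96.3% of beige shared and 46.4% of beige single promoter peaks and at 4.06% of the 19155 beige single peaks away from promoters. Of these 19155 peaks 69.3% overlapped an H3K27ac peak of Flox. Of the RT single peaks 43.2% overlapped a peak in no other list, against 9.28% of beige single peaks.

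**Figure D3:**
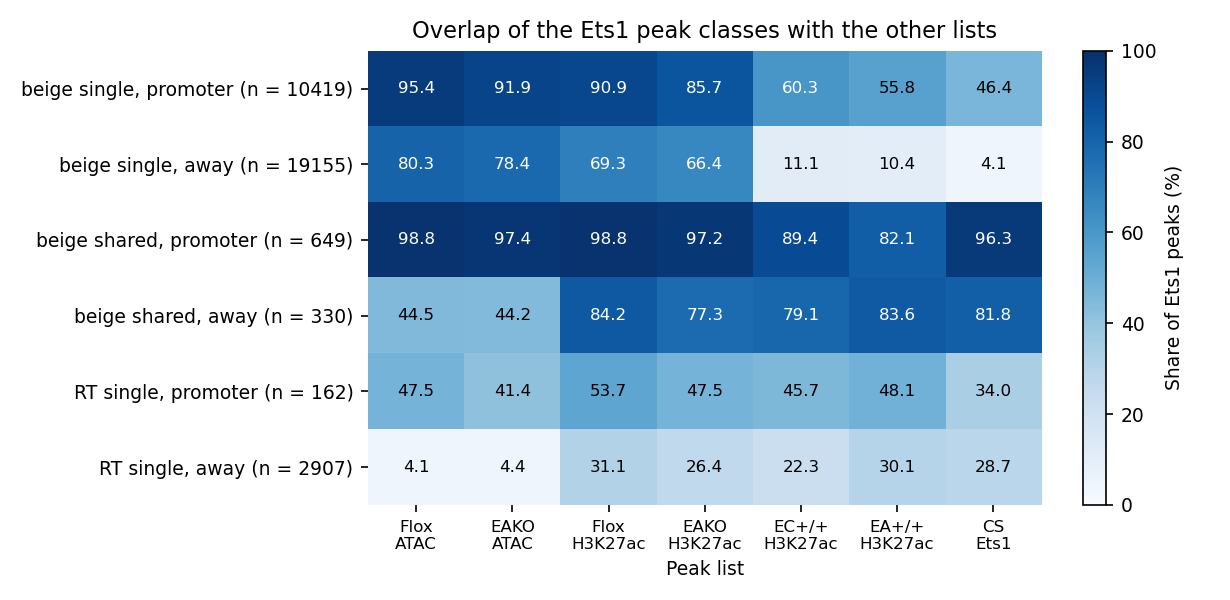
Share of Ets1 peaks (%, colour and number in each cell) of 6 classes (rows) that overlap a peak of the ATAC, H3K27ac and cold stress Ets1 lists (columns). Beige single peaks away from promoters overlapped Flox ATAC in 80.3% and CS Ets1 in 4.1%, while RT single peaks away from promoters overlapped Flox ATAC in 4.1%.

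The letters at the summits differed between the classes. The ETS letters were in 3.70% of beige single promoter windows (386 of 10419, 3.36 to 4.08) and 1.08% of beige shared promoter windows (7 of 649, 0.523 to 2.21), and in 0 of the 162 RT single promoter windows, with an upper Wilson limit of 2.32%. Windows centred on all protein-coding start sites held them in 2.38%, and windows spread over the genome in 0.0589%. The same letters in reversed order, which keep the base composition but not the CpG, were in 0.346% of beige single promoter windows. Windows 1 kb to each side of those summits held the ETS letters in 0.173%. Over the whole lists 443 of 30553 beige windows held the ETS letters (1.45%, 1.32 to 1.59), against 4 RT windows (0.0986%, 0.0384 to 0.253). The beige share was 3.93% in the best 10% of the list, where 73.8% of peaks lay at promoters, and 0.393% in the last 10%, where 16.1% did. A match describes the letters and is no proof of binding.

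Beige single promoter peaks with the ETS letters stood higher within the list. Their median −log10 q was 18.5 (quartiles 10.2 to 32.0), against 10.3 (5.13 to 21.9) for the single promoter peaks without. Their summits lay a median of 34 bp from the nearest start site, against 90 bp. Of those with the letters 59.3% overlapped a CS peak (54.4 to 64.1), against 45.9% of those without (45.0 to 46.9).

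Away from promoters the AP-1 letters led in beige. They were in 17.6% of beige single windows (3372 of 19155, 17.1 to 18.1) and 3.94% of beige shared windows (13 of 330, 2.32 to 6.62), against 1.72% of RT single windows (50 of 2907, 1.31 to 2.26). The reversed letters ACTNAGT were in 3.98% of the same beige single windows, windows 1 kb to each side held the AP-1 letters in 2.98%, and genome windows in 2.98%. Beige single peaks with the AP-1 letters were in Flox ATAC in 93.2% (92.3 to 94.0), against 77.6% of those without (76.9 to 78.2). The order was the other way for CS, at 2.14% with the letters (1.70 to 2.68) and 4.47% without (4.16 to 4.80). Those with the letters had a median −log10 q of 6.84 (quartiles 3.94 to 12.0), against 4.92 (2.62 to 9.03) for those without. Among all beige peaks away from promoters the letters were in 22.1% of those within the best peaks taken in equal number with RT (259 of 1173, 19.8 to 24.5) and in 17.4% of the whole (3385 of 19485).

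**Figure D4:**
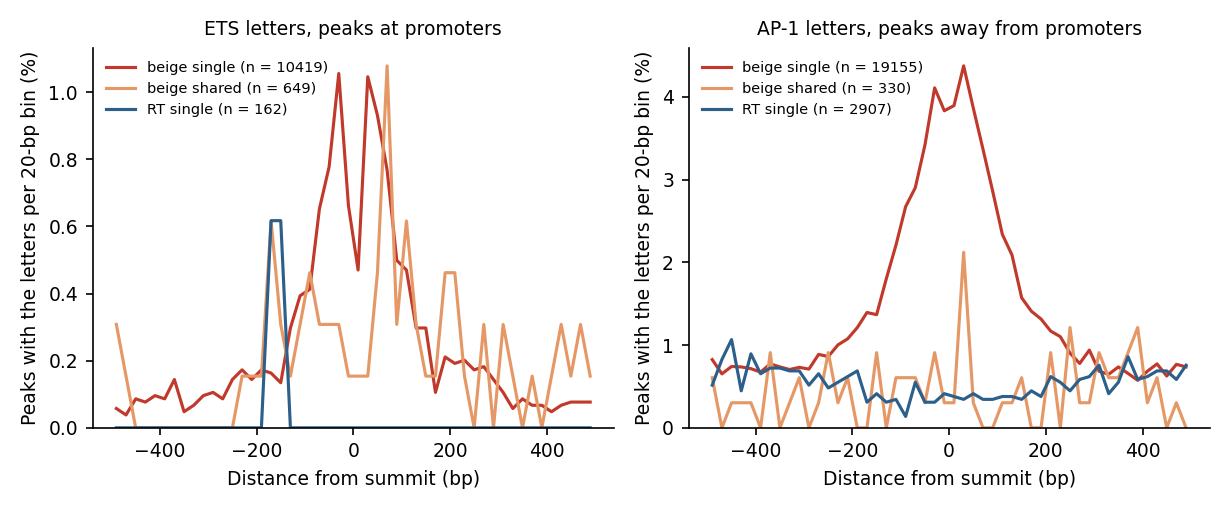
Share of peaks (y axis, %) with the ETS letters at promoters (left) and the AP-1 letters away from promoters (right) in each 20-bp bin by distance from the summit (x axis, bp), for beige single (red), beige shared (orange) and RT single (blue) peaks. Both lines of beige single peaks are highest around the summit, and the AP-1 line of RT single peaks has no rise at the summit.

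Shared promoter peaks were rich in other letters, and so were the strongest beige promoter peaks. The SP/KLF letters were in 54.9% of beige shared (51.0 to 58.6) and 37.7% of beige single promoter windows (36.8 to 38.7), against 7.41% of RT single ones (4.29 to 12.5). All start site windows held them in 20.3%. The NF-Y letters CCAAT were in 27.1% of beige shared and 17.3% of beige single promoter windows, against 5.56% of RT single ones and 11.3% of all start site windows. The C/EBP letters TTGCNNAA and the PPAR letters AGGTCANAG, after the main adipogenic factors, were in 4.70% and 1.03% of beige single windows away from promoters, against 1.72% and 0.722% of RT single ones. Windows 1 kb from those beige summits had 3.90% and 0.778%, and genome windows 4.69% and 0.586%. All letters were searched on both strands.

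RT single peaks carried repeats. A CA repeat lay in 15.8% of their windows away from promoters (459 of 2907, 14.5 to 17.2), against 2.22% 1 kb away and 1.64% of genome windows, while beige single windows away from promoters had it in 3.72%. Repeat-masked bases made up over 50% of the window, called mostly masked here, in 47.4% of these RT single peaks and in 8.26% of the beige single ones. Beige shared peaks away from promoters resembled RT here, with 49.7% mostly masked and 12.4% with a CA repeat. A few peaks at the very top of both lists were of this kind. Over the best 10% of the beige list 3.34% of peaks were mostly masked, against 14.3% of its last 10%. In the RT list these shares were 53.4% and 25.7%. The RT peak over the predicted gene Gm10800 on chromosome 2 (98666551 to 98667321) had the highest −log10 q of that list, 3864, and the beige peak there had 754. Of the 10 strongest beige shared peaks away from promoters 9 had windows at least 85.1% masked, the exception being the one 5242 bp upstream of Kdm6b, a histone demethylase gene (−log10 q 238). Without the mostly masked peaks, the single share was 97.3% in beige and 67.9% in RT. Whether such regions were removed by the authors was not given in the sources used here, and their part in the RT list was not tested.

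By gene, 10182 of 21938 protein-coding genes (46.4%) carried a beige peak at a promoter and 890 (4.06%) an RT peak. Both libraries had one at 802 genes (3.66%), of which 750 had overlapping peaks. Beige alone had one at 9380 genes (42.8%) and RT alone at 88 (0.401%). Of the genes in beige alone 60.4% had a promoter peak in CS and 99.3% one in Flox ATAC, against 30.7% and 72.7% of those in RT alone. Genes with a peak in both libraries stood high in beige, with a median −log10 q of 56.6 (quartiles 26.2 to 98.9), against 13.3 (6.70 to 26.9) for those in beige alone. With promoters of 3 kb on each side 143 genes were in RT alone, and with equal numbers of peaks 2655 were in beige alone and 272 in RT alone.

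The 10 genes with the highest promoter peak in beige alone had −log10 q of 247 to 357. Nadk, the kinase that makes NADP, had −log10 q 357 on chromosome 4 (155563322 to 155563999). Prepl, a peptidase, and Camkmt, which methylates calmodulin, shared a peak at 330. Nemp1, a nuclear envelope protein, and Nab2, a co-repressor of EGR factors, shared one at 295, and Mlf2 had one at 289. Mylpf, a fast muscle myosin light chain, shared its peak (273) with Tbc1d10b, which acts on Rab GTPases, so the peak cannot be given to either gene. Eif3j1, a subunit of a translation initiation factor, had 261, and Nfatc4, a factor that calcineurin activates, had 247. All 10 had a CS peak as well.

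The genes with a peak in both that ranked highest in both lists were partly predicted genes in repeats. Gm10800 came first, followed by Gm10717 and Gm10718, which share a peak on chromosome 9 (485 in beige, 2349 in RT), and Gm10722 (282 in beige, 1204 in RT). After them came Ccdc9 (286 in beige, 22.9 in RT), Brat1, which acts in the DNA damage response (111 in beige, 22.8 in RT), Tbl2 (131 in beige, 21.1 in RT), Zhx1, a homeobox factor, with Gm29394 at the same peak (80.6 in beige, 16.4 in RT), and Nampt, the rate-limiting enzyme of NAD salvage (92.7 in beige, 15.9 in RT). With mostly masked windows left out, the next were Ntmt1, Wipi1, Ski and Usp32, the last of these on chromosome 11 with 211 in beige and 14.3 in RT.

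The 88 genes in RT alone had weak peaks, with a median −log10 q of 3.03 (quartiles 2.29 to 3.84). Only 19 of them had the RT summit within 100 bp of a start site, and 18 had mostly masked windows. Highest were the predicted genes Gm21738 (175) and 4931408C20Rik (24.5), Ank1, which encodes an ankyrin (21.3, at a start site inside the gene), Gm11168 (16.8), Gm10719 (11.3), Npnt, a matrix protein (8.03), the growth factor Igf2 (6.34), Plcb4, a phospholipase C (5.94), the olfactory receptor gene Olfr1344 (5.94) and Gm9758 (5.66). No gene of these 10 belongs to the autophagy, mitochondrial, thermogenic or adipocyte lists.

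Gene lists were read against 46.4% in beige and 4.06% in RT over all genes, and against 14.9% (3273 genes) for the best beige peaks taken in equal number. Of the 14858 genes with a Flox ATAC peak at a promoter, 10117 had a beige promoter peak, and the lists were not matched for openness. Of the 32 lists 19 had a member with a promoter peak in RT, and olfactory receptors were the only list with a member in RT alone. Every other RT call in the lists was at a gene that beige also had, and over all genes 802 of the 890 with an RT peak (90.1%) had a beige one too. The RT interval of 30 of the 32 lists included the 4.06% of all genes, the exceptions being mitochondrial biogenesis, above it, and olfactory receptors, below it.

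**Figure D5:**
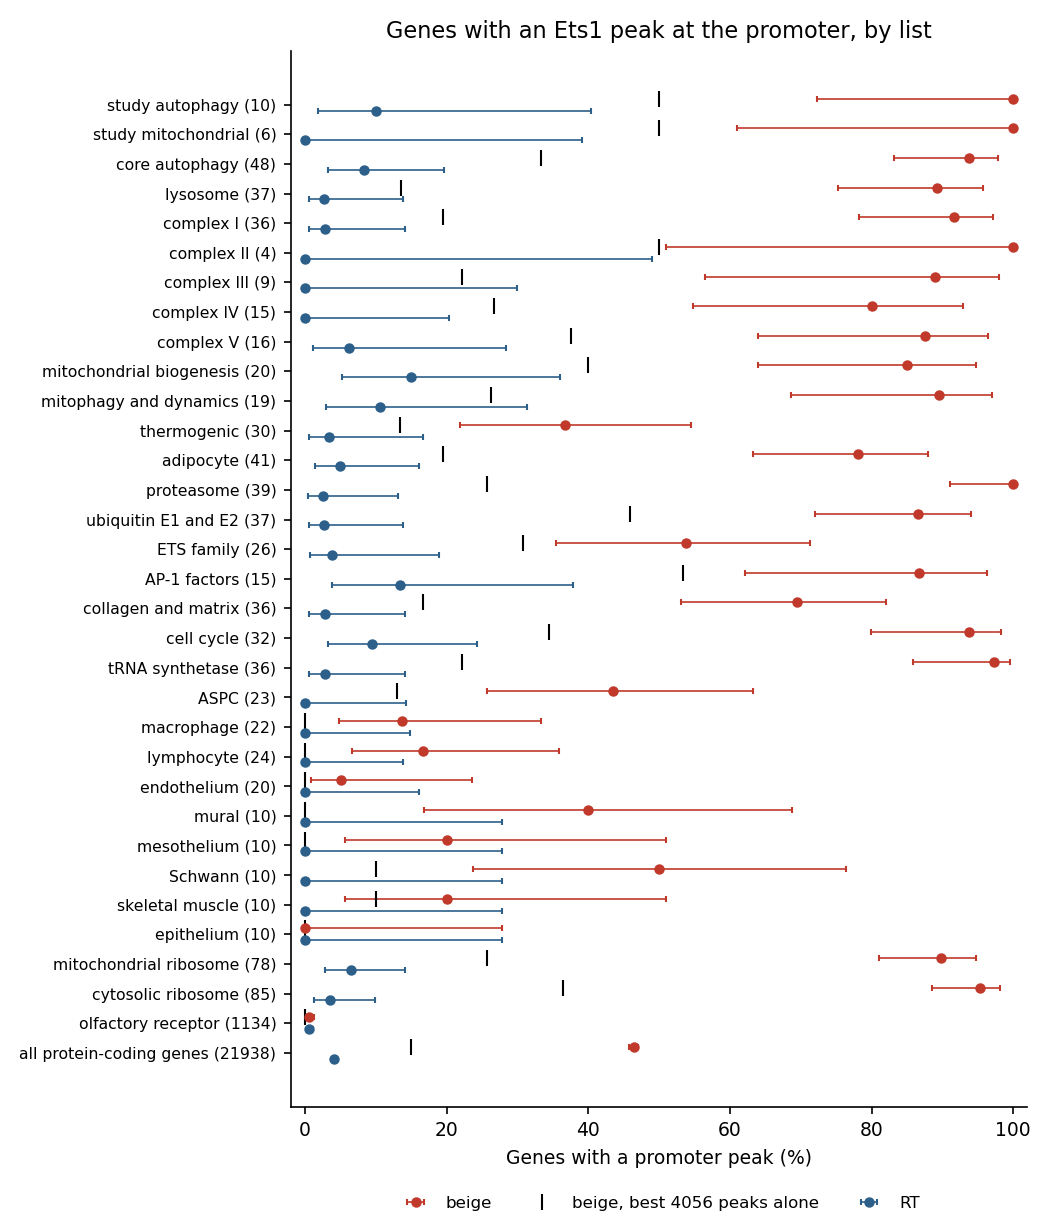
Share of genes (x axis, %) with a promoter peak in beige (red) and RT (blue) for 32 gene lists and all protein-coding genes (y axis, number of genes in brackets), with Wilson 95% intervals, and for as many of the best beige peaks as RT had (black ticks). Core autophagy had 93.8% in beige and 8.33% in RT, against 46.4% and 4.06% over all genes.

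Of the 10 autophagy genes taken here from the study, Atg2a, Atg3, Atg5, Atg101 and Ulk1 are its examples of Ets1 binding. Atg9a and Atg10 come from its promoter activity assays, and Atg4b, Atg4d and Atg16l2 from its qPCR primers. Each of the 10 carried a beige peak at the promoter, and only Ulk1 carried an RT one. The study chose its binding examples from libraries of this series, so the count is not independent evidence. Ulk1 had −log10 q 42.2 in beige and 6.05 in RT. Higher within the beige list were Atg2a, a lipid transfer protein (61.4), Atg9a, the membrane scramblase of the growing autophagosome (48.4), and the protease Atg4d (43.1). Atg5, of the conjugation machinery, had 29.7, Atg101, of the Ulk1 complex, 23.1, Atg3, the conjugating enzyme, 11.6, the protease Atg4b 6.40, Atg16l2 5.71 and Atg10 3.86, with no RT peak at any of them. The 6 mitochondrial genes, all from the study's examples of Ets1 binding, each carried a beige promoter peak and none an RT one. They were Cox8a of complex IV (50.8), Sdhb of complex II (34.8), Tfam (34.7), Ndufv2 of complex I (17.6), Atp5a1 of complex V (7.49) and Uqcr10 of complex III (4.22). Of these 16 genes 1 (Tfam) had the ETS letters within the window and 3 (Atg101, Cox8a and Tfam) anywhere in the beige peak. These letters are stricter than the GGAA core, which was not counted, so a gene without them can still hold an Ets1 site. The study reports that mutating predicted Ets1 sites in the Atg9a, Atg10, Sdhb and Uqcr10 promoters reversed the effect of Ets1 on promoter activity. Over all 16 genes the beige summits lay between 1 and 267 bp from the nearest start site, with a median of 62.5 bp.

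Of 48 core autophagy genes 45 had a beige promoter peak and 4 an RT one, against 46.4% and 4.06% of all genes. Those with both were Wipi1, which reads phosphoinositides on the forming membrane (156 in beige, 14.7 in RT), Uvrag, of the class III PI3 kinase complex (80.8 in beige, 2.26 in RT), Tfeb, the master regulator of lysosome genes (7.46 in beige, 8.53 in RT), and Ulk1. In beige alone Tfe3, the relative of Tfeb (106), the cargo receptor Nbr1 (75.9) and Atg12 (61.6) were highest beside Atg2a. Lysosome genes had 33 of 37 in beige and 1 in RT. That one was Atp6v1d, a subunit of the proton pump (76.6 in beige, 1.65 in RT), and Npc2, a cholesterol carrier (64.2), Atp6v1a (56.6), Atp6v0d1 (53.1) and Neu1, a sialidase (40.6), were highest in beige alone. With equal numbers of peaks beige had 16 of 48 core autophagy genes (33.3%) and 5 of 37 lysosome genes (13.5%), against 14.9% of all genes. The lysosome share was then no higher than that of all genes.

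Over the respiratory chain, complexes I to V, beige had a promoter peak at 71 of 80 genes (88.8%, 80.0 to 94.0), against 46.4% of all genes. RT had one at 2 of 80 (2.50%, 0.688 to 8.66), an interval that includes the 4.06% of all genes. With equal numbers of peaks beige had 7 of 36, 2 of 4, 2 of 9, 4 of 15 and 6 of 16 in complexes I to V, against 14.9% of all genes. For complex I the beige list covered 33 of 36 members and the RT list 1, Ndufb5 (49.0 in beige, 2.29 in RT), at a peak that also serves the ribosomal gene Mrpl47. Ndufa11 (86.3), Ndufa6 (45.6), Ndufs8 (44.5) and Ndufv1 (30.7) were highest in beige alone. Complex II was covered whole in beige, 4 of 4, and not in RT, with Sdhb, Sdhc (30.8), Sdhd (19.7) and Sdha (6.70). Complex III had 8 of 9 in beige and 0 in RT, led by Uqcrh (47.3), Uqcr11 (24.5) and Cyc1 (21.5), with Uqcrq (15.5), Uqcrc1 (11.6), Uqcrb (6.70), Uqcrc2 (5.76) and Uqcr10 below. Complex IV had 12 of 15 in beige and 0 in RT, led by Cox4i1 (52.7), Cox8a, Cox5a (32.1) and Ndufa4 (28.7). Complex V had 14 of 16 in beige and 1 in RT. That one was Atp5e (12.4 in beige, 4.73 in RT), and Atp5d (63.0), Atp5b (42.9), Atp5j (38.7) and Atp5g1 (30.6) were highest in beige alone. The Atp5j peak is also the promoter peak of Gabpa, another ETS factor.

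Of 20 mitochondrial biogenesis genes 17 had a promoter peak in the beige list and 3 in the RT list. Over all genes the shares were 46.4% in beige and 4.06% in RT, which also apply to the next 2 lists. With equal numbers of peaks beige had 8 of 20 biogenesis, 5 of 19 mitophagy and dynamics and 20 of 78 mitochondrial ribosome genes. These were 40.0%, 26.3% and 25.6%, against 14.9% of all genes. Yy1, a zinc finger factor, had 296 in beige and 8.78 in RT, Esrra, the nuclear receptor ERR alpha, 96.5 in beige and 2.45 in RT, and Tfb1m, a mitochondrial rRNA methylase, 48.7 in beige and 5.66 in RT. In beige alone the highest were Tfb2m (39.1), Gabpa, Tfam and the helicase Twnk (32.7). Mitophagy and dynamics had 17 of 19 in beige and 2 in RT, namely the mitophagy receptors Bnip3l (112 in beige, 3.03 in RT) and Bnip3 (17.0 in beige, 5.66 in RT). Phb2, a prohibitin (114), the protease Yme1l1 (70.5), Mief1 (63.6) and the fission factor Fis1 (39.1) led in beige alone. The mitochondrial ribosome had 70 of 78 in beige and 5 in RT. Those 5 were Mrpl47, Mrpl17 (43.1 in beige, 3.03 in RT), Mrps28 (30.4 in beige, 6.05 in RT), Mrps26 (21.5 in beige, 3.84 in RT) and Mrpl9 (3.56 in beige, 2.29 in RT). Mrps18b (113), Mrpl18 (102), Mrpl34 (63.4) and Mrpl41 (62.8) led in beige alone.

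Of 30 thermogenic genes 11 had a promoter peak in beige (36.7%, 21.9 to 54.5), an interval that includes the 46.4% of all genes, and 1 in RT. The gene in RT was Letmd1 (8.75 in beige, 1.65 in RT), which brown fat needs for heat production. In beige alone the highest were Gk, glycerol kinase (77.0), Zfp516 (42.3), Pdk4 (29.6) and the calcium pump gene Atp2a2 (24.9). The promoter of Ucp1, the uncoupling protein of heat production, had no peak in either list. Adipocyte genes had 32 of 41 in beige (78.0%) and 2 in RT (4.88%), against 46.4% and 4.06% of all genes. With equal numbers of peaks beige had 8 of the 41 (19.5%), against 14.9% of all genes. Slc2a4, the insulin-regulated glucose transporter, had overlapping peaks (14.8 in beige, 5.66 in RT), whereas the peaks at Acly, ATP citrate lyase, did not overlap (27.1 in beige, 5.45 in RT). The lipogenic genes Acaca (78.4) and Fasn (57.9), the factor Klf4 (51.1) and the lipid droplet gene Plin4 (41.4) led in beige alone.

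Across whole loci with 50 kb on each side, beige had peaks at 20 of 21, against 77% of all genes at this margin, and RT at 5 of 21, against 23.2% of all genes. The strongest beige peak lay at the promoter of a neighbouring gene in 6 of the loci, namely at Elmod2 for Ucp1, Tubb6 for Cidea, Gbf1 for Elovl3, Eif4ebp1 for Adrb3, Rfc4 for Adipoq and Gatd1 for Pnpla2. Ets1 itself had 12 peaks in beige and 0 in RT, with the strongest at its own promoter (25.3). Around Pnpla2, the triglyceride lipase, beige had 11 peaks and RT 2, and around Ebf2, a beige fate factor, beige had 9 and RT 1. Prdm16, a regulator of brown and beige identity, had 5 peaks in beige and 5 in RT, of which 4 in each were single, so the lists met at a single site there. Around Lep, the gene of leptin, beige had 1 and RT 2, all single. Fasn had 5 and 1. Cidea, Cebpa, Cebpb and Plin1 had 5 peaks each in beige, Adipoq, the gene of adiponectin, 4, Adrb3, Pparg, Lpl and Scd1 3 each, Ucp1, Elovl3, Fabp4 and Cd36 2 each and Dio2 1, with 0 in RT at all of these. Ppargc1a, the coactivator of mitochondrial biogenesis, had none in either.

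Genes of protein turnover and protein synthesis were read against 46.4% of all genes in beige and 4.06% in RT. With equal numbers of peaks beige had 10 of 39 proteasome genes (25.6%) and 17 of 37 ubiquitin enzymes (45.9%). It then had 31 of 85 cytosolic ribosome genes (36.5%) and 8 of 36 tRNA synthetases (22.2%), against 14.9% of all genes. The proteasome had 39 of 39 in beige and 1 in RT, Psme2, a subunit of the immune activator (53.8 in beige, 2.89 in RT), with Psmd12 (68.4), Psmd3 (66.4), Psma4 (40.0) and Psmc4 (35.5) highest in beige alone. Ubiquitin E1 and E2 enzymes had 32 of 37 in beige and 1 in RT, Ube2d3 (144 in beige, 2.97 in RT). Ube2n (167), Ube2s (99.4), Ube2r2 (96.2) and Ube2b (65.9) led in beige alone. The cytosolic ribosome had 81 of 85 in beige and 3 in RT. Those 3 were Rps25 (77.6 in beige, 2.29 in RT), Rpl13a (66.0 in beige, 3.05 in RT) and Rplp2 (53.8 in beige, 2.75 in RT), and Rpl27 (146), Rpsa (127), Rps18 (105) and Rpl32 (92.1) led in beige alone. The tRNA synthetases had 35 of 36 in beige and 1 in RT, Cars, for cysteine (40.1 in beige, 3.47 in RT), with Yars (107), Ears2 (80.9), Vars (39.7) and Eprs (37.0) highest in beige alone.

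Among transcription factors, AP-1 genes had 13 of 15 in beige (86.7%, 62.1 to 96.3), against 46.4% of all genes. With equal numbers of peaks it was 8 of 15 (53.3%), against 14.9% of all genes. In RT they had 2 of 15 (13.3%, 3.74 to 37.9), an interval that includes the 4.06% of all genes. Those 2 were Jun (121 in beige, 7.67 in RT) and Jund (116 in beige, 4.87 in RT). Fosl2 (118), Junb (78.3), Fos (73.3) and Maff (42.4) led in beige alone. The ETS family had 14 of 26 in beige (53.8%, 35.5 to 71.2), an interval that includes the 46.4% of all genes. It had 1 in RT, Ets2, whose peaks did not overlap (7.19 in beige, 2.15 in RT). The repressor Erf (51.2), Etv5 (40.5), Gabpa (38.7) and Elf2 (38.4) led in beige alone.

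Genes of growth and matrix, which stromal cells also use, were read against 46.4% of all genes in beige and 4.06% in RT. The beige share was 93.8% for cell cycle genes and 69.4% for collagen and matrix genes (53.1 to 82.0). With equal numbers of peaks it was 11 of 32 (34.4%) and 6 of 36 (16.7%), against 14.9% of all genes, so the matrix share was then near that of all genes. Cell cycle genes had 30 of 32 in beige and 3 in RT, namely the kinases Cdk4 (115 in beige, 3.29 in RT) and Cdk1 (18.7 in beige, 3.84 in RT) and the inhibitor Cdkn1b (25.8 in beige, 2.29 in RT). Pcna, the replication clamp (93.9), Cdkn1a (75.7), Ccnd3 (63.4) and Mcm7 (61.3) led in beige alone. Collagen and matrix genes had 25 of 36 in beige and 1 in RT, Lamc1, a laminin chain (191 in beige, 5.79 in RT), with Lox (71.6), Timp1 (39.0), Sparc (33.4) and Col1a1 (26.7) highest in beige alone.

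Markers of other cells were counted in the same way, against 46.4% of all genes in beige and 4.06% in RT. The interval of each of these lists in RT includes 4.06%, so their counts of 0 there do not set them apart from other genes. Among 23 markers of adipose stem and progenitor cells, 10 had a beige promoter peak and 0 an RT one, with Pdgfrb (47.5), Col1a1, Fstl1 (24.6) and F3 (21.0). Mural markers had 4 of 10 in beige and 0 in RT (Acta2 13.1, Mcam 4.70, Myh11 4.19, Tagln 2.62), and mesothelial markers 2 of 10 and 0 (Wt1 7.22, Krt19 6.28). Schwann markers had 5 of 10 in beige and 0 in RT. Among them were Pmp22 (23.3), Prx (19.1), Egr2 (13.6) and Sox10 (5.27). Skeletal muscle had 2 of 10 in beige (Mylpf, and Actn3 at 14.5) and 0 in RT. Macrophage markers had 3 of 22 in beige (Csf1r 11.6, Mertk 8.16, Cd68 5.07), lymphocyte markers 4 of 24 (among them Pax5 5.21, Cd5 2.79, Zap70 2.62) and endothelial markers 1 of 20 (Eng 3.28), with 0 in RT for each, and epithelial markers had 0 of 10 in both. The part of progenitors left in the culture in the beige list was not tested.

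Olfactory receptor genes, which serve the sense of smell, had 7 of 1134 in beige (0.617%) and 6 in RT (0.529%). Over all genes these shares were 46.4% and 4.06%. Olfr94 (2.36 in beige, 3.03 in RT) and Olfr279 (3.86 in beige, 2.93 in RT) had both. Olfr520 (5.27), Olfr282 (5.27), Olfr159 (3.67) and Olfr1188 (1.46) were among those in beige alone, and Olfr1344, Olfr768 (4.42), Olfr609 (2.29) and Olfr642 (2.26) were in RT alone.

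Counting peaks on gene bodies with 10 kb on each side, 14084 genes had one in beige, 2518 in RT and 2090 in both. Most beige peaks lay at Gm20388 (207 in beige, 16 in RT), a gene model of 4455 kb, followed by Fgfr2 (56 and 5), whose model spans 2981 kb, Camta1 (21 and 7) over 965 kb, Ctif (21 and 0) over 286 kb, Tns1 (21 and 1), Frmd4a (20 and 2), Gse1 (20 and 1), Fbn1 (19 and 0), Pakap (19 and 0) and Smg6 (19 and 1). Fbn1 encodes fibrillin, a matrix protein of stromal cells, and Tns1 a focal adhesion protein. In RT the order was another one. Sfi1, a centrosome gene on chromosome 11, had 34 RT peaks, of which 30 were single, and 7 in beige, and C130026I21Rik on chromosome 1 had 13 RT peaks, all single, and none in beige. CS had 35 and 14 peaks at these genes.

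Away from promoters the strongest beige single peaks lay near Setd1b, a histone methylase (246, 3824 bp upstream), in an intron of Pdlim7 (237), near BC030867 (236) and Smim15 (231), in an intron of the actin-binding gene Flna (173), near Prss56 (163), Wnt7b (163), Nanos3 (156) and Tex44 (155) and in an intron of Fam129b (154). None of their windows was mostly masked. The strongest RT single peaks there included 3 upstream of Scaf8 on chromosome 17 (297, 96.8 and 54.8) and others nearest to Gm3460 (81.0), Hnf4g (77.5), Lama1 (73.8), Flt1 (73.3), Gpm6a (72.0), P4ha2 (63.0) and Gm8297 (55.0), with windows 62.4% to 100% masked. The nearest gene gives a position only.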

How the data were processed

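Ets1 binding was measured by CUT&Tag in 1 library of beige and 1 of RT adipocytes. The authors trimmed reads with Trimmomatic, aligned them to mm10 with BWA and called peaks with MACS2 at a q-value threshold of 0.05. SAMtools and deepTools are also named in the submitters' processing notes. The control library and any removal of problem regions are not given in the sources used here. Read totals, which the study states, were not used here, and the peak lists themselves hold no read counts. Each deposited list gives, as the authors' peak caller wrote them, a score, a fold enrichment (a ratio to the local background), −log10 p and −log10 q values and the summit offset. Peaks were ranked on −log10 q.

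Peaks were compared with bedtools 2.31.1, with 1 bp as the least overlap. Promoters were 1 kb on each side of the starts of 21938 protein-coding genes of the GENCODE annotation. Letters were searched on both strands of the RefSeq GRCm38.p6 genome. The error of a share is its Wilson 95% interval and reflects counting alone. With 1 library per group no test was run. Python 3.11.15, NumPy 2.4.6, pandas 2.3.3 and SciPy 1.17.1 were used, and the overlap, interval and letter counts were checked on made-up data with known answers. Genes named were the 10 highest with a promoter peak in each class, those in both ranked by the poorer of their ranks in the lists, all members with an RT peak and the 4 highest in beige alone of each list, and the study's genes. Genes named after mostly masked windows were left out, and those with most RT peaks, were chosen after their values were seen. A few genes and sequences that these rules select are not reported here. The sites and lists were chosen with earlier results of these data known. Alternatives were stricter q, equal numbers of peaks, other overlaps, promoter and window widths, and leaving out mostly masked windows.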

Additional observations from a re-analysis of the deposited data

How the results depend on the processing

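The share of beige peaks without an RT peak, 96.8%, was 97.1% at q under 0.001, 85.4% with equal numbers of best peaks, 98.6% with reciprocal overlap of at least 50%, 97.3% for summits within 200 bp and 97.3% without mostly masked windows. The share of RT peaks without a beige peak, 75.7%, was 72.2%, 85.2%, 89.6%, 79.9% and 67.9% under the same settings. Genes with a promoter peak in beige alone numbered 2655 with equal numbers. Genes in RT alone were 272 with equal numbers and 143 with promoters of 3 kb on each side.

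With equal numbers, 3 kb promoters and no mostly masked windows, promoters held 68.6%, 42.1% and 36.7% of beige single peaks, 85.7%, 69.8% and 79.9% of beige shared peaks, and 8.77%, 10.0% and 7.91% of RT single peaks. Flox ATAC held 99.2% of beige single, 97.6% of beige shared and 11.7% of RT single peaks with equal numbers. It held 87.8%, 92.3% and 8.45% without mostly masked windows, and 83.8% of beige single and 5.47% of RT single peaks when at least 50% of the Ets1 peak had to be covered. Over all places together the ETS letters were in 1.47% of beige single windows, 4.50% with equal numbers and 2.66% in windows of about double the width, and in 0.817% of beige shared windows, 2.35% in the wider ones. At promoters the wider windows held them in 6.60% of beige single and 3.24% of beige shared peaks. Values moved in 33 of 49 cases and stayed within the interval or 1.5 times the count in 16. Leaving out mostly masked windows was chosen after seeing the data. No paired analysis was possible because each group had 1 library, and for the same reason no library could be left out. Differences between animals or cultures and the effect of depth on the number of peaks were not tested.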
